A study of Mus musculus with 9 samples.

Results

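The HOX genes described here are the 39 protein-coding genes of the Hoxa, Hoxb, Hoxc and Hoxd clusters, chosen by name from 49548 genes, of which 21960 were protein coding. The rule reads gene names and types only. Their expression was measured by 3′ mRNA sequencing in cultured synovial fibroblasts (SFs) from the ankle joints of 8-week-old mice of a mixed CBA and C57BL/6J background. There were 3 libraries of WT SFs, 3 of untreated hTNFtg SFs and 3 of hTNFtg SFs given infliximab at 1 µg/mL for 48 hours. hTNFtg mice carry a human TNF transgene and develop chronic polyarthritis, and the transgene is not limited to fibroblasts. Infliximab is an antibody that binds human TNF. SFs of both genotypes were depleted of CD45+ cells at passage 1. The labels call the untreated SFs not treated, whereas the methods describe vehicle, and nothing ties a library to an animal or to a replicate number in another group, so p-values measure the spread between these cultures.

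HOX genes encode homeodomain transcription factors that give cells their position along the body and limb axes. In each cluster the paralogue number follows the order of the genes, with low numbers used towards the head and trunk and high numbers towards the tail and the far end of the limbs. Genes of the Hoxa and Hoxd clusters with high paralogue numbers pattern the upper, middle and distal segments of the limb in the embryo. Fibroblasts of adult tissues keep much of this positional pattern in culture, which is why HOX genes serve as a record of where in the body a fibroblast came from.

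The 11 Hoxa genes lie on the minus strand at chr6:52155590-52260880 of mm10. The 10 Hoxb genes lie at chr11:96194316-96368256, the 9 Hoxc genes at chr15:102921103-103036852 and the 9 Hoxd genes at chr2:74668310-74765142, all on the plus strand. RefSeq promoter windows of 300 bases on GRCm38.p6, the assembly of mm10, matched 22 of the 39 genes with 24 windows. Of the Hoxb genes only Hoxb1, Hoxb4 and Hoxb8 had a window, and of the Hoxc genes only Hoxc4, so Hoxc11 and Hoxc13 had none. The windows were searched for the dinucleotide CG, which reads the same on both strands, and for TATAAA on either strand. The median was 14.5 CG per HOX window and 7 over all 32851 windows. The 17 windows of HOX genes with a mean of at least 10 normalized counts in a group had a median of 15 CG, with a range of 4 to 45, and the 7 windows of less expressed HOX genes had a median of 14, with a range of 9 to 29. TATAAA was found in 4 HOX windows, those of Hoxa10, Hoxb8, Hoxd4 and Hoxd13, and in 13.6% of all windows. Windows of a highly expressed gene (Hoxa11, chr6:52245761-52246060, minus strand), a gene near 0 (Hoxb4, chr11:96318017-96318316, plus strand) and the gene with the highest mean of its cluster (Hoxd13, chr2:74667975-74668274, plus strand) are printed, with each CG in capitals, to show the range of CG number among them.
Hoxa11: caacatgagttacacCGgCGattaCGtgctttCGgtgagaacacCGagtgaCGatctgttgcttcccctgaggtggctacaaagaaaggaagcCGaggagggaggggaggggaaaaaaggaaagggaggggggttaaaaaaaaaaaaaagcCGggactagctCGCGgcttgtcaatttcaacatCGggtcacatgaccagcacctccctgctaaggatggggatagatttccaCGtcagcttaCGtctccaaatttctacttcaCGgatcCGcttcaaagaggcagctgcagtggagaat
Hoxb4: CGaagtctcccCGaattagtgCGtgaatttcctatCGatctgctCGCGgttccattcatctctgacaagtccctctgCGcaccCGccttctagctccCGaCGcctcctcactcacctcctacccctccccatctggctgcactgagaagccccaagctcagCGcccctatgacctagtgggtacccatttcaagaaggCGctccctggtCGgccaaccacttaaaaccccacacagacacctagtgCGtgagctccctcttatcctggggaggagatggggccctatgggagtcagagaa
Hoxd13: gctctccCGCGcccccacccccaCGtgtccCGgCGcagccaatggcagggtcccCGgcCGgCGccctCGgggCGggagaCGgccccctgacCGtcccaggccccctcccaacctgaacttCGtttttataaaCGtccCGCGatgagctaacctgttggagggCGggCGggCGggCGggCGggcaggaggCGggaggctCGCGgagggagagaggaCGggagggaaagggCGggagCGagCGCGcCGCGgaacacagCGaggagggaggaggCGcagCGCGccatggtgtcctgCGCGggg
Hoxa11, the HOX gene with the highest mean, held 15 CG, Hoxb4 held 14 and Hoxd13 held 37.

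The depth of the libraries was uneven. The deposited values are read counts divided by a factor per library and rounded, here called normalized counts, and approximate reads recovered from them numbered 3829045 to 9014061 in 8 libraries but 613339 in hTNFtg replicate 1. The deepest library had 14.7 times the reads of that library. In hTNFtg replicate 1 a single read was worth 6.23 normalized counts, and 3 reads, taken as the limit that a count of 0 allows, were worth 18.7, against 1.60 to 3.31 in the other libraries. Values of hTNFtg replicate 1 below 18.7 therefore rest on fewer than 3 reads, and these limits cover counting error only. Fibroblast markers summed to 69188 to 99129 normalized counts per library. Macrophage markers summed to 197 to 781 in WT SFs, 3379 to 7647 in untreated hTNFtg SFs and 2251 to 4684 in infliximab-treated SFs, while chondrocyte markers summed to 6485 to 9767, 866 to 1547 and 1208 to 2938. The chondrocyte sums in WT SFs were mostly Comp and Sox9, with means of 5671 and 1620 against 566 and 208 in untreated hTNFtg SFs. Col2a1 and Col11a1 were nearly level, with means of 68.3 and 284 against 66.7 and 278. All 11 chondrocyte markers tested had a negative log2 fold change in untreated hTNFtg versus WT SFs. The macrophage sums came from 13 measured markers, with Ptprc, which encodes CD45, at 0 to 3 in WT SFs and 8 to 31 in hTNFtg SFs of either treatment, and their part in the results below was not tested. Osteoblast markers other than Spp1 summed to 692 to 1248 in WT SFs, 93 to 164 in untreated and 169 to 310 in infliximab-treated SFs. Spp1, which encodes osteopontin, went the other way, with 1013 to 1556, 2155 to 4217 and 1906 to 2710. Hepatocyte markers reached 1033 in infliximab replicate 3 and at most 67 elsewhere.

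The ankle is a hindlimb joint, and the limb identity genes followed that label in WT SFs. Tbx4, a transcription factor of the hindlimb, had 61, 42 and 36 normalized counts in WT SFs. Pitx1, which specifies the hindlimb, had 29, 34 and 41. Tbx5, the forelimb counterpart of Tbx4, had 5, 3 and 4, below every WT value of the other two. Untreated hTNFtg SFs had 37, 42 and 26 for Tbx4 and 12, 18 and 27 for Pitx1, and infliximab-treated SFs had 66, 31 and 38 and 34, 41 and 30. Pitx1 was below all WT and all treated libraries in untreated hTNFtg SFs, with log2 fold changes of -0.89 (SE 0.50) against WT and 0.91 (SE 0.51) for infliximab, neither at an unadjusted P under 0.05 in limma. Tbx4 overlapped between all groups, and Tbx5 stayed between 0 and 7 in all 9 libraries.

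The SFs of all groups used the Hoxa and Hoxd clusters most, the Hoxc cluster less and the Hoxb cluster hardly at all. Since the reads come from transcript ends, values of different genes are set side by side as 3′ read levels without division by gene length. In WT SFs the Hoxa genes held 71.5% ± 2.21 (SD, n = 3) of the summed HOX normalized counts, the Hoxd genes 20.6% ± 3.01, the Hoxc genes 7.61% ± 2.16 and the Hoxb genes 0.231% ± 0.116. Of the 39 genes, 38 were above 0 in at least 1 library and 20 in all 9. A mean of at least 10 in a group was reached by 19 genes, namely 8 of 11 in Hoxa, 0 of 10 in Hoxb, 4 of 9 in Hoxc and 7 of 9 in Hoxd. Paralogues 9 to 13 held 76.5% ± 5.13 of the WT total, paralogues 5 to 8 held 12.0% ± 1.33 and paralogues 1 to 4 held 11.4% ± 3.81. Most of the last share was the value listed for Hoxa2, which is shared with noncoding neighbours, and without Hoxa2 paralogues 1 to 4 held 3.31% ± 0.219, paralogues 5 to 8 held 13.2% ± 2.05 and paralogues 9 to 13 held 83.5% ± 2.17. The order of the clusters was the same in every library, with Hoxa between 58.6% and 75.1% and Hoxd between 17.2% and 32.8%. Without Hoxa11, the gene with the highest mean, the Hoxa share in WT SFs was 62.4%.

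**Figure D1:**
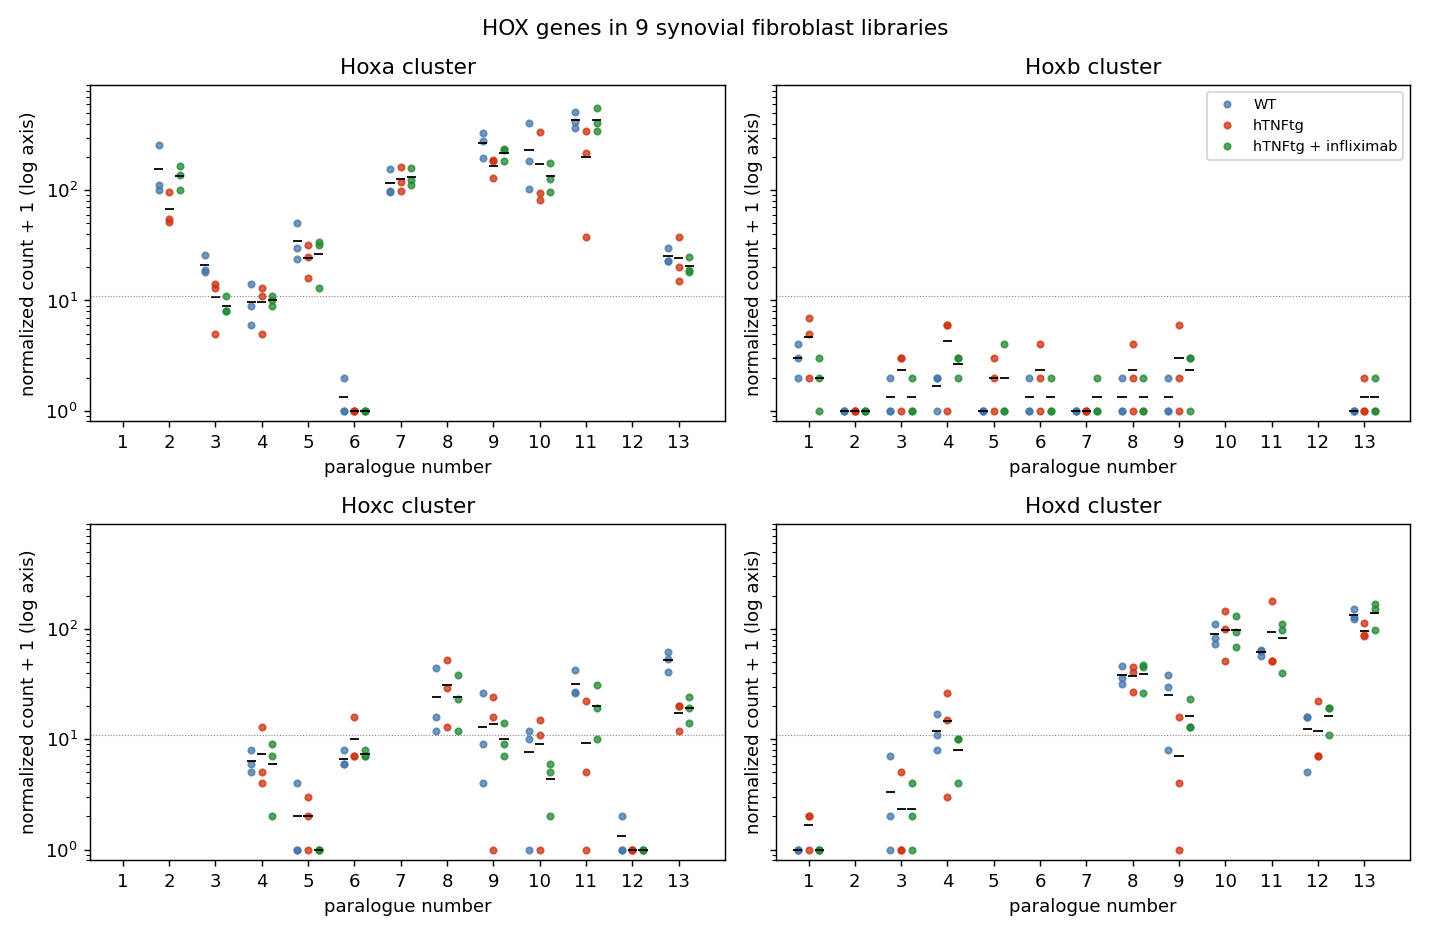
Normalized count plus 1 (log axis) of HOX genes by paralogue number, in a panel per cluster, with a point per library and a black bar at the mean of 3 libraries. The dotted line marks 10 normalized counts: no Hoxb gene reaches it in any library, while Hoxa9, Hoxa10 and Hoxa11 lie well above it, mostly over 100.

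**Figure D2:**
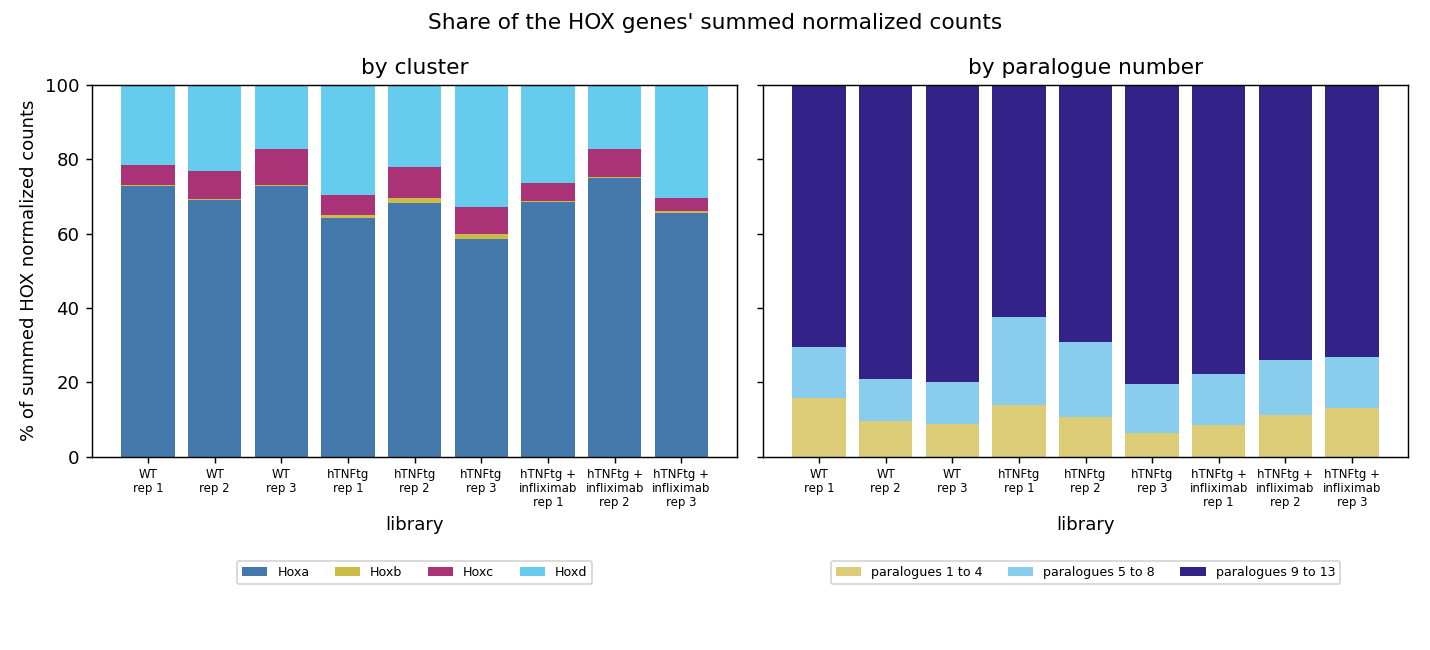
Percent of the summed HOX normalized counts in each library, by cluster (left) and by paralogue number (right). Hoxa takes between 58.6% and 75.1% in every library, and paralogues 9 to 13 take between 62.4% and 80.4%.

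Within Hoxa the highest group means in WT and untreated hTNFtg SFs were those of Hoxa9, Hoxa10 and Hoxa11, and Hoxa13 was far below them. With infliximab the means of Hoxa11 and Hoxa9 were highest, while Hoxa10, at 132, was level with Hoxa2 at 133 and Hoxa7 at 131, and in 4 of 9 libraries Hoxa10 was below Hoxa7. Hoxa11, needed for the forearm and lower leg segment, had 513, 413 and 364 normalized counts in WT SFs, a mean of 430 ± 75.9 (SD, n = 3). Its mean over the 9 libraries lay at the 92.5th percentile of all genes above 0. Hoxa9 had 329, 193 and 277 in WT SFs, and Hoxa10, which acts in the upper segment of the limb, had 102, 183 and 406. All Hoxa11 values were above all Hoxa9 values in WT SFs, whereas Hoxa10 overlapped both. Hoxa13, which patterns the hand and foot, had 22, 29 and 22 in WT SFs and did not exceed 37 in any library. It thus stayed below Hoxa11 in every library apart from hTNFtg replicate 1, where both were listed at 37.

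The lower Hoxa numbers were not graded. Hoxa7 had 155, 98 and 96 in WT SFs, whereas Hoxa6, its neighbour in the cluster, was at 0 or 1 in all 9 libraries. Hoxa5, a gene of the neck and chest region, had 49, 23 and 29, and Hoxa3 had 17, 18 and 25. Hoxa4 stayed between 4 and 13 in all libraries. Hoxa2, a gene of the hindbrain and jaw arches, was listed at 256, 100 and 110 in WT SFs, above Hoxa7 in each library, but its reads could not be told apart from those of neighbouring noncoding RNAs.

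The Hoxd genes were expressed from Hoxd8 to Hoxd13, and in WT SFs the gene at the distal end of the cluster was the highest. Hoxd13, a gene of the digits and the distal limb, had 152, 128 and 122 normalized counts in WT SFs, a mean of 134 ± 15.9 (SD, n = 3). Hoxd10 had 111, 82 and 72 and Hoxd11 had 56, 62 and 64, and all 3 values of Hoxd13 lay above all of these. This order did not hold in untreated hTNFtg SFs, where Hoxd10 was above Hoxd13 in replicates 2 and 3 and Hoxd11 in replicate 3. Hoxd12, between Hoxd11 and Hoxd13 on the chromosome, had 15, 4 and 15, below every value of both neighbours. Hoxd8 had 45, 35 and 31, Hoxd9 had 29, 37 and 7, and Hoxd4 had 16, 10 and 7. Hoxd3 was at 6 or less and Hoxd1 at 1 or less in all libraries. Hoxd4 had nearly the values of Gm28230, an overlapping gene model on the same strand, with at most 4 normalized counts between them, so its reads are uncertain.

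Expression in the Hoxc cluster was low and, in WT SFs, peaked at its distal end, whereas Hoxc8 had the highest Hoxc mean in untreated and in infliximab-treated hTNFtg SFs, at 30.3 and 23.3. Hoxc13, best known for its part in hair and nail formation, had 52, 40 and 61 in WT SFs, a mean of 51.0 ± 10.5 (SD, n = 3). Hoxc11, a hindlimb gene, had 26, 41 and 25, and Hoxc12, which lies between them, was at 0 or 1 in all 9 libraries. Hoxc8 had 15, 11 and 43 and Hoxc9 had 3, 8 and 25, each highest in WT replicate 3. Hoxc8, Hoxc9 and Hoxa10 were also highest in replicate 3 of the untreated hTNFtg SFs, at 51, 23 and 339, whereas in infliximab-treated SFs their highest value was in another replicate. Hoxc4, Hoxc6 and Hoxc10 were between 0 and 15, and Hoxc5 was at 3 or less. Keratinocyte markers summed to 15 to 34 in every library, with the skin keratins Krt5 and Krt14 at 0 or 1.

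No Hoxb gene exceeded 6 normalized counts. Hoxb2 was at 0 in all 9 libraries, and Hoxb1, the highest of the cluster by its mean, had 1, 2 and 3 in WT SFs, 6, 1 and 4 in untreated hTNFtg SFs and 2, 0 and 1 with infliximab. Its log2 fold changes were 0.51 (SE 0.83) for hTNFtg versus WT, -1.18 (SE 0.85) for infliximab versus untreated and -0.67 (SE 0.59) for infliximab-treated versus WT SFs, with limma adjusted p = 0.814, 0.803 and 0.646. The summed Hoxb level was 2 to 5 in WT SFs, 6 to 19 in untreated hTNFtg SFs and 3 to 11 with infliximab. Thus the untreated hTNFtg libraries were all above the WT libraries in a sum of at most 19 normalized counts, with 6, the value of a single read, in replicate 1. Macrophage markers moved the same way, as given above, and their part in this was not tested.

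The first comparison asks what differs between SFs of arthritic and healthy joints. The summed HOX level was 1554 to 1999 in WT SFs and 888 to 1522 in untreated hTNFtg SFs, and the hTNFtg range lay below the WT range. Of 37 HOX genes tested with limma on log2(normalized count + 1), 0 were raised and 5 were lowered. A gene counts as called where its unadjusted P is under 0.05 and its log2 fold change reaches 1 or more in either direction, the thresholds of the study's methods. Over all 28522 genes tested, 3.35% were raised and 3.04% lowered by this rule. The 5 were Hoxc13, Hoxc11, Hoxa11, Hoxa2 and Hoxd9. After Benjamini-Hochberg adjustment over all genes in limma, 0 HOX genes remained under 0.05, where 0.48% of all genes did, and without adjustment 5 HOX genes and 7.72% of all genes were under it. With edgeR on approximate reads 1 HOX gene, Hoxc13, had an adjusted p under 0.05, as had 3.24% of all genes. Of the 19 HOX genes with a mean of at least 10, 15 had a negative log2 fold change, against 54.5% of all such genes, and the median was -0.50 against -0.06. Some of these 19, such as Hoxc11, Hoxd9 and Hoxa3, reach a mean of 10 only through WT SFs, and over all 37 genes tested 18 were higher and 19 lower, with a median of -0.027 against -0.0034 over all genes. In 7 of the 19 genes with a mean of at least 10, Hoxc11 and Hoxa3 among them, every hTNFtg library was below every WT library. Of all genes with such a mean, 9.4% did the same. The untreated hTNFtg group includes the shallow library, and without it 1 HOX gene, Hoxc13, was lowered and 4 of the lowest expressed, Hoxb3, Hoxb4, Hoxb5 and Hoxd1, were raised.

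Hoxc13 was the HOX gene lowered under every setting that was run. It had 52, 40 and 61 normalized counts in WT SFs and 19, 19 and 11 in untreated hTNFtg SFs. All WT values were above all hTNFtg values, with 40 as the lowest and 19 as the highest. The log2 fold change was -1.60 (SE 0.47, 95% interval -2.63 to -0.58), with a limma adjusted p of 0.240. edgeR on approximate reads gave -1.74 with an adjusted p of 0.0379. The value of 19 in hTNFtg replicate 1 rests on 3 reads, and without that library the log2 fold change was -1.73. Across 15 alternative settings and left-out libraries it stayed between -1.76 and -1.35 and kept its call in all 15. The sums of chondrocyte markers, mostly Comp and Sox9 in WT SFs, and of osteoblast markers other than Spp1 were lower in the same hTNFtg libraries, as given above. The part of these markers in this difference was not tested. Bulk libraries also cannot tell fewer expressing cells from less RNA per cell, which holds for each difference below.

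Hoxa11 and Hoxc11, paralogues of the same number, were lowered with all hTNFtg libraries below all WT libraries. Hoxa11 had 37, 340 and 217 normalized counts in untreated hTNFtg SFs against 513, 413 and 364 in WT SFs, with a log2 fold change of -1.59 (SE 0.64) and a limma adjusted p of 0.526. The value of 37 in hTNFtg replicate 1 rests on 6 reads, with an exact 95% Poisson interval of 13.7 to 81.3 normalized counts, far below the other two. Without this library the log2 fold change was -0.65, its unadjusted P was above 0.05 and Hoxa11 was no longer called. Hoxc11 had 0, 21 and 4 in hTNFtg SFs against 26, 41 and 25, with a log2 fold change of -2.69 (SE 1.00) and a limma adjusted p of 0.464. The 0 belongs to hTNFtg replicate 1, where 3 reads are worth 18.7, and without that library the log2 fold change was -1.56 and the gene was no longer called. Hoxd9 had 0, 3 and 15 against 29, 37 and 7, so its groups overlapped, with a log2 fold change of -2.38 (SE 1.07) and a limma adjusted p of 0.635. Without hTNFtg replicate 1 it was -1.38, and that call was lost too. The Hoxa11 and Hoxc11 calls were also lost when any WT library was left out, at -1.71 to -1.46 and -2.81 to -2.47, and the Hoxd9 call without WT replicate 1, WT replicate 2 or hTNFtg replicate 2, at -2.12, -1.95 and -2.38.

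**Figure D3:**
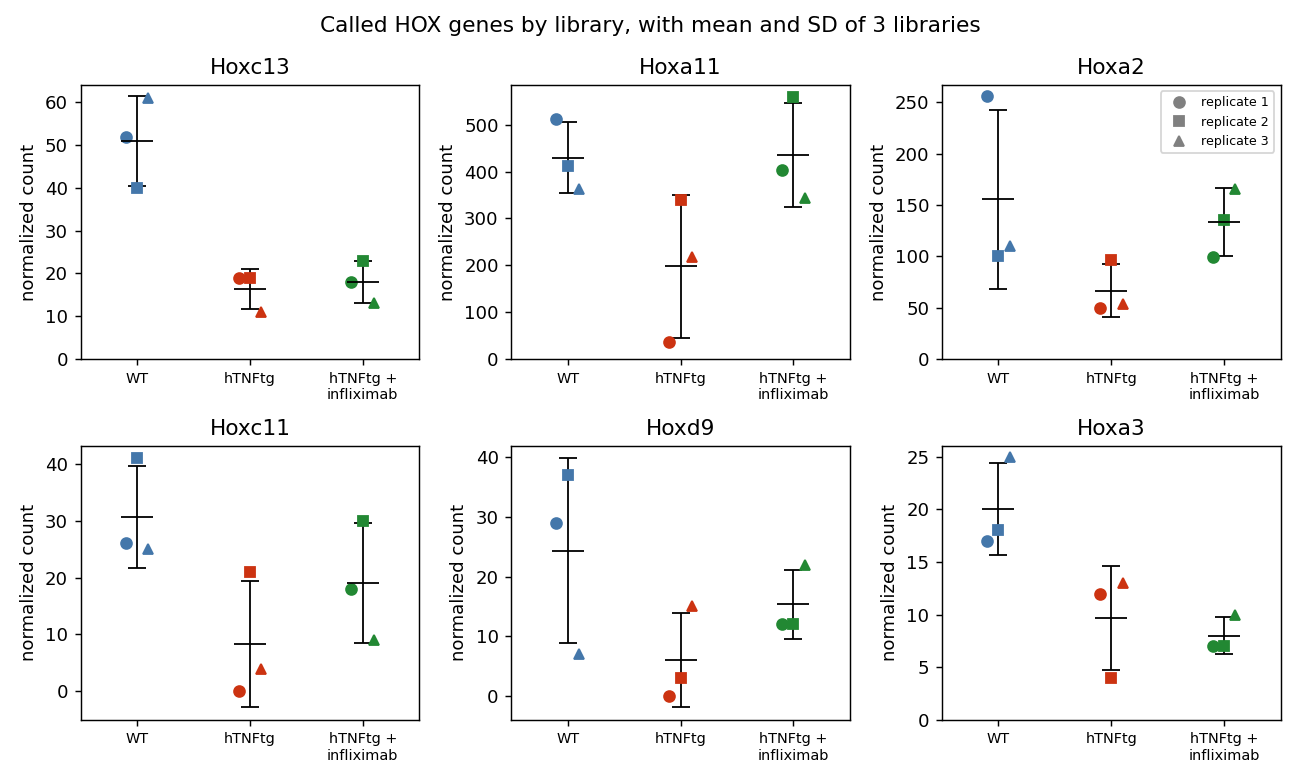
Normalized counts of the 6 HOX genes called in a comparison with WT SFs, with a symbol per replicate, a horizontal bar at the mean and whiskers of 1 SD (n = 3). Hoxc13 is below all WT values in all 6 hTNFtg libraries, treated or not, while Hoxa11 is lowest in hTNFtg replicate 1 at 37 and back at 343 to 559 with infliximab.

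Hoxa3, Hoxa9 and Hoxd13 were lower in all hTNFtg libraries without passing the rule. Hoxa3 had 12, 4 and 13 normalized counts where WT SFs had 17, 18 and 25, and its log2 fold change was -1.10 (SE 0.67) with a limma adjusted p of 0.726. Hoxa9 had 187, 182 and 129 against 329, 193 and 277, a log2 fold change of -0.66 (SE 0.32) with a limma adjusted p of 0.677. Hoxd13 had 87, 86 and 112 against 152, 128 and 122, a log2 fold change of -0.50 (SE 0.30) with a limma adjusted p of 0.726. None of these 3 genes reached an unadjusted P under 0.05 in this fit, but with array quality weights Hoxa3 was called lowered, at -1.75. The remaining genes with a mean of at least 10 overlapped between the groups. Hoxa5 had 31, 24 and 15 in hTNFtg SFs, Hoxa7 had 118, 162 and 97, Hoxa10 had 81, 93 and 339, and Hoxa13 had 37, 19 and 14. Hoxc8 had 12, 28 and 51 and Hoxc9 had 0, 15 and 23. In the Hoxd cluster Hoxd4 had 25, 14 and 2, Hoxd8 had 44, 40 and 26, Hoxd10 had 50, 99 and 144, Hoxd11 had 50, 50 and 178 and Hoxd12 had 6, 6 and 21. The value of 178 for Hoxd11 in hTNFtg replicate 3 stood apart from the 50 of the other two. The log2 fold changes of the 14 genes that were not called ranged from -1.10 to 0.40.

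**Figure D4:**
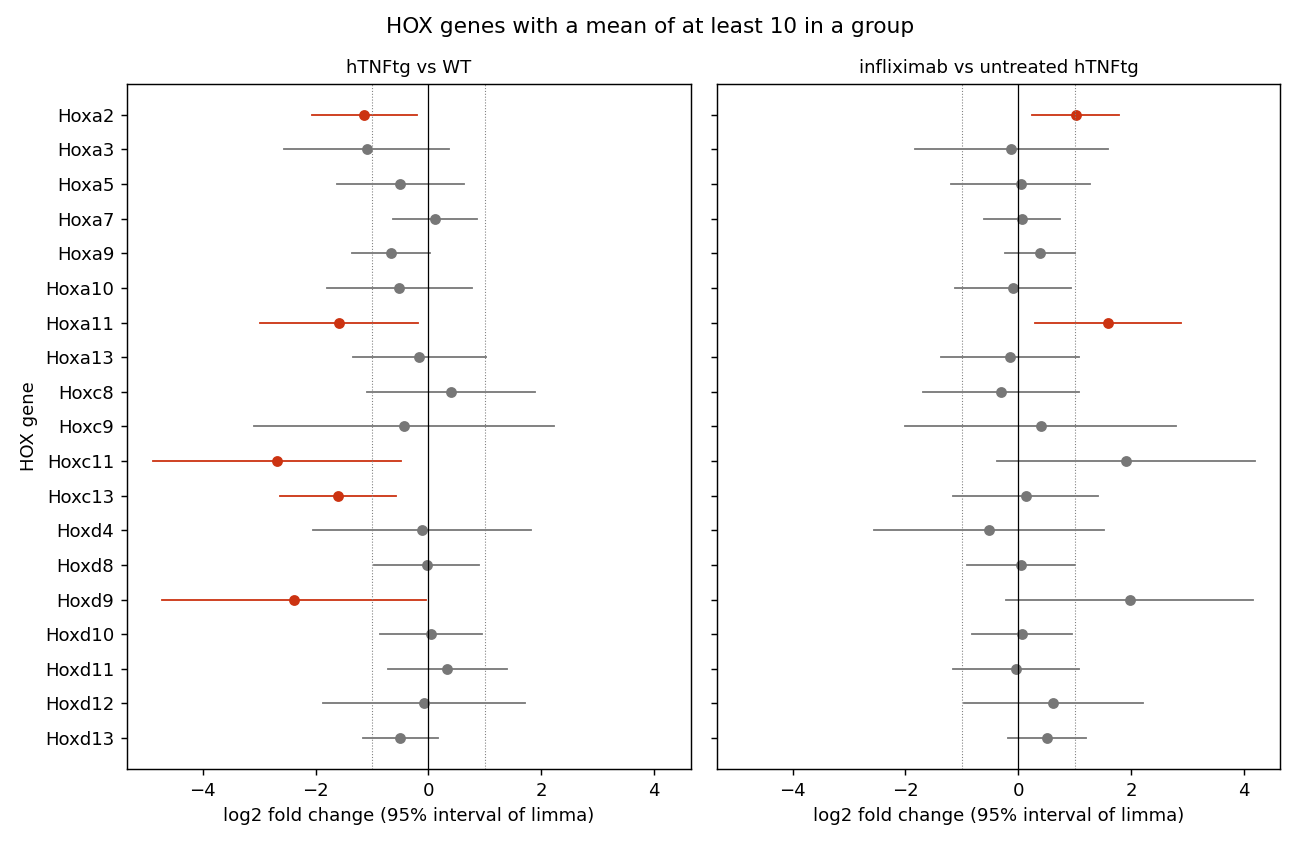
Log2 fold change on the log2(normalized count + 1) scale with the 95% interval of limma for the HOX genes with a mean of at least 10 in a group, for hTNFtg versus WT SFs (left, 19 genes) and infliximab-treated versus untreated hTNFtg SFs (right), both on 1 axis. Called genes are red and dotted lines mark a log2 fold change of 1 in either direction: 5 genes are red on the left, all negative, and 2 on the right, both positive.

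The deposited values of Hoxa2 do not separate this gene from its noncoding neighbours. Hoxa2 had 256, 100 and 110 normalized counts in WT SFs, 50, 96 and 54 in untreated hTNFtg SFs and 99, 135 and 165 with infliximab. Gm27868 and Gm27477, short noncoding RNA genes annotated on the opposite strand, had exactly these 9 values. Neither overlaps Hoxa2, whose interval is chr6:52162417-52164831 on the minus strand: Gm27868 ends 305 bases and Gm27477 ends 149 bases before its 3′ end. Hotairm1, an antisense RNA of the Hoxa cluster that is known for regulating Hoxa genes in myeloid cells, had 260, 106 and 112 in WT SFs, 56, 98 and 55 in hTNFtg SFs and 99, 139 and 173 with infliximab. It differed from Hoxa2 by at most 8 normalized counts. Its last exon, chr6:52161931-52162119 on the plus strand, holds Gm27868 whole. The sources used here do not state whether reads were counted by strand, so reads of Hoxa2, Gm27868, Gm27477 and Hotairm1 cannot be told apart. The RNA genes' sequences, on the plus strand of GRCm38 from the GENCODE transcripts, are shown because a 3′ library reads the ends of polyadenylated transcripts, with the polyadenylation signal AATAAA in capitals.
Gm27868: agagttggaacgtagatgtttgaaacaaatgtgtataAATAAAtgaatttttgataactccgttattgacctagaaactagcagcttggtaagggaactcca
Gm27477: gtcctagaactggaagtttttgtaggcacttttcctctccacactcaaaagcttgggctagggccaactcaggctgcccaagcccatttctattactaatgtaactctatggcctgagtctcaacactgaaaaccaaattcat
AATAAA was present 1 time in Gm27868, at chr6:52162010-52162111, and absent from Gm27477, at chr6:52162125-52162267. Its reverse complement TTTATT, which would be read from the strand of Hoxa2, was in neither. The 3′ end of Hoxa2 itself was not searched, so this search does not place the reads on a strand. By comparison, 30.8% of 135845 annotated transcripts hold AATAAA in their last 143 bases, a longer stretch than the 102 bases of Gm27868.

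**Figure D5:**
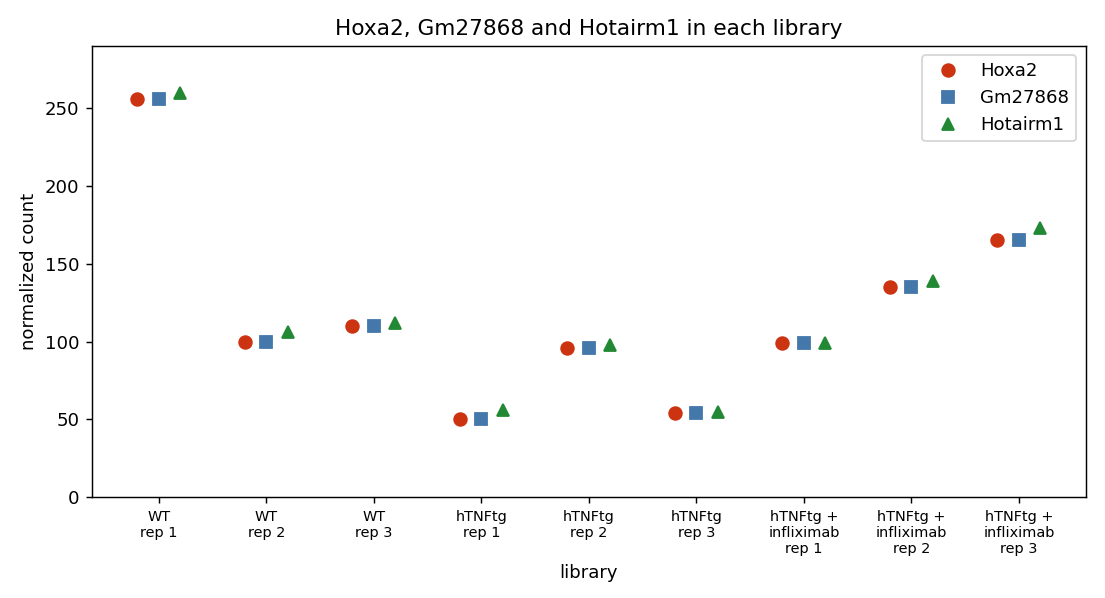
Normalized counts of Hoxa2, Gm27868 and Hotairm1 in each of the 9 libraries. Hoxa2 and Gm27868 have the same value in every library, from 50 to 256, and Hotairm1 lies at most 8 above them.

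With this limit, the values listed for Hoxa2 were lower in untreated hTNFtg than in WT SFs, with a log2 fold change of -1.13 (SE 0.43) and a limma adjusted p of 0.475. Hotairm1 fell by 1.11 (SE 0.42) on the log2 scale, with a limma adjusted p of 0.474. Without hTNFtg replicate 1 the Hoxa2 log2 fold change was -0.96, without WT replicate 1, which has the value of 256, it was -0.71, and without hTNFtg replicate 3 it was -1.02. In none of these was it called. Shared or nearly shared values were also found at a few other places. Hoxa4 had the 9 values of Gm29430, an antisense gene that overlaps it by 255 bases, and Hoxa3 came within 5 normalized counts of Hoxaas2 on its opposite strand. In all, 23 HOX genes were overlapped by another gene, 14 of them by a gene on the opposite strand. Hoxa11, in contrast, overlaps Hoxa11os by 1418 bases, yet Hoxa11os had 263, 283 and 383 in WT SFs, 62, 163 and 386 in hTNFtg SFs and 208, 179 and 204 with infliximab, up to 380 away from Hoxa11.

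The second comparison asks what infliximab changed in hTNFtg SFs. The summed HOX level was 1544 to 1635 in treated SFs, above the 888 to 1522 of untreated SFs and within or just below the WT range. Of 36 HOX genes tested, 2 were raised and 0 lowered by the same rule, where 1.49% of 28540 genes were raised and 0.936% lowered. No HOX gene had an adjusted p under 0.05 in limma or in edgeR, and of all genes 0% and 0.578% did. Unadjusted, 2 HOX genes were under 0.05 in limma, where 3.59% of all genes were. The 2 were Hoxa11 and the value shared by Hoxa2 and its neighbours. Hoxa11 had 404, 559 and 343 in treated SFs against 37, 340 and 217, a log2 fold change of 1.60 (SE 0.60) with a limma adjusted p of 0.803. Every treated value was above every untreated value, but 343 and 340 were only 3 apart. Without hTNFtg replicate 1 the log2 fold change was 0.65, and Hoxa11 was no longer called, nor was it when any infliximab library was left out, at 1.40 to 1.75. Hoxa2 had 99, 135 and 165 against 50, 96 and 54, a log2 fold change of 1.02 (SE 0.36) with a limma adjusted p of 0.803. It was 0.84 without hTNFtg replicate 1, 0.90 without hTNFtg replicate 3, 0.99 without infliximab replicate 2 and 0.85 without infliximab replicate 3, and not called in any of these. Without hTNFtg replicate 1, then, 0 HOX genes were raised and 5 of the lowly expressed, Hoxb3, Hoxb4, Hoxc5, Hoxc10 and Hoxd1, were lowered.

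Of 18 HOX genes with a mean of at least 10 in this comparison, the groups did not overlap in 2, both higher with infliximab, against 6.47% of all such genes. Hoxc13 had 18, 23 and 13 in treated and 19, 19 and 11 in untreated SFs, and the groups overlapped. Its log2 fold change was 0.14 (SE 0.60) with a 95% interval of -1.15 to 1.42, so the interval still holds a log2 change of 1 in either direction. Hoxd13 had 168, 97 and 151 against 87, 86 and 112, a log2 fold change of 0.51 (SE 0.32) with a limma adjusted p of 0.803. Hoxc11 had 18, 30 and 9 and Hoxd9 had 12, 12 and 22, both overlapping the untreated values. Their log2 fold changes were 1.91 (SE 1.06) and 1.97 (SE 1.02), without an unadjusted P under 0.05. Both rest on a 0 in hTNFtg replicate 1, and without that library they were 0.78 and 0.97. The 16 genes that were not called ranged from -0.52 to 1.97. Among the others, Hoxa5 had 12, 31 and 33, Hoxa7 had 158, 123 and 111, Hoxa9 had 230, 233 and 183, Hoxa10 had 175, 96 and 126 and Hoxa13 had 18, 17 and 24. Hoxc8 had 22, 37 and 11 and Hoxc9 had 6, 13 and 8. Hoxd4 had 9, 9 and 3, Hoxd8 had 25, 44 and 46, Hoxd10 had 92, 68 and 130, Hoxd11 had 109, 39 and 97 and Hoxd12 had 18, 10 and 18. These ranges all overlapped those of untreated hTNFtg SFs.

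The third comparison sets infliximab-treated hTNFtg SFs against WT SFs and does not use the shallow library, though it shares the WT and treated libraries with the other comparisons. Of 37 HOX genes tested, 0 were raised and 2 lowered, where 3.86% of 28243 genes were raised and 2.95% lowered. Hoxc13 had 18, 23 and 13 against 52, 40 and 61, a log2 fold change of -1.47 (SE 0.33, 95% interval -2.21 to -0.72) with a limma adjusted p of 0.0941. edgeR gave -1.47 with an adjusted p of 0.00801, and across 15 alternatives the log2 fold change stayed between -1.65 and -1.26 and the call was kept in all 15. Hoxc13 was thus below all WT libraries in 6 of 6 hTNFtg libraries, treated or not. Hoxa3 had 7, 7 and 10 against 17, 18 and 25, a log2 fold change of -1.22 (SE 0.43) with a limma adjusted p of 0.274, and Hoxaas2, which shares its values closely, had 6, 7 and 7 against 16, 13 and 25. With edgeR Hoxa10 also had an adjusted p of 0.0425, at a log2 fold change of -0.79, under the size the rule asks for. Hoxa11 and Hoxd13 were level with WT SFs, with log2 fold changes of 0.00 (95% interval -0.50 to 0.51) and 0.02 (95% interval -0.52 to 0.56). In limma 0 HOX genes kept a p under 0.05 after adjustment, as 0.74% of all genes did, and 2 were under it before adjustment, as 11.9% of all genes were. In edgeR 4.68% of all genes had an adjusted p under 0.05.

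Other transcription factors of limb position were called in both directions, mostly lower in hTNFtg SFs. Of 30 measured in the first comparison, 2 were raised and 7 lowered by the same rule, where 3.35% of all genes were raised and 3.04% lowered. The median log2 fold change was -0.53 among the 22 with a mean of at least 10, against -0.06 over all such genes. In the same hTNFtg libraries the sums of chondrocyte markers and of osteoblast markers other than Spp1 were lower and that of macrophage markers higher, as given above. Their part in these calls was not tested. Irx3, a homeobox gene of the proximal limb bud, had 258, 244 and 301 normalized counts in WT SFs and 50, 80 and 90 in hTNFtg SFs, with a change of -1.89 (SE 0.32) on the log2 scale and limma adjusted p = 0.0274. Infliximab-treated SFs had 110, 151 and 154, between the groups, with a log2 fold change of 0.93 against untreated SFs that missed the size asked for. Irx5, Msx1, Osr2, Sall1 and Tbx2 were among the others lowered, though Tbx2 was at 6 or less in every library. Osr2, a regulator of joint formation, had 31, 56 and 82 in WT SFs against 0, 14 and 20, and Msx1, a gene of the limb tip, had 59, 71 and 68 against 25, 19 and 45. Shox2, a gene of the upper limb segment, was raised, with 106, 35 and 42 against 23, 11 and 35, and so was Zeb2, with 149, 59 and 86 against 53, 40 and 39. The Shox2 values of both groups meet at 35. Neither was called without hTNFtg replicate 1, at 0.85 for Shox2 and 0.70 for Zeb2, nor without WT replicate 2, at 0.90 and 0.99, and Shox2 was not called without WT replicate 1 (1.40) nor Zeb2 without WT replicate 3 (0.97). Of the genes lowered, Irx3 kept its call with each library left out, whereas the count of 7 became 4 without WT replicate 2 and 4 without WT replicate 3. With infliximab 0 of 31 were called against untreated SFs, where 1.49% of all genes were raised and 0.936% lowered. Against WT SFs 3 of 30 were raised (Tbx3, Shox2 and Emx2) and 4 lowered, among them Tbx2, Msx1 and Osr2. Over all genes in that comparison, 3.86% were raised and 2.95% lowered. The count of raised genes was 1 without WT replicate 2, infliximab replicate 1 or infliximab replicate 3.

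Retinoic acid controls many HOX genes in the embryo, and genes for its handling moved in both directions. Of 18 measured, 3 were raised and 3 lowered in untreated hTNFtg SFs, against 3.35% and 3.04% of all genes. Cyp26b1, which breaks retinoic acid down, had 5253, 3503 and 2887 normalized counts in WT SFs and 891, 904 and 488 in hTNFtg SFs, with a change on the log2 scale of -2.36 (SE 0.39) with limma adjusted p = 0.0237. Treated SFs had 2820, 1552 and 521, below WT and overlapping untreated SFs. Chondrocyte markers, whose sum was also lower in hTNFtg than in WT SFs, summed to 2938, 2405 and 1208 in these treated libraries. Their part in the Cyp26b1 values was not tested. Crabp2, which carries retinoic acid to the nucleus, was raised, with 10, 12 and 9 against 44, 26 and 96, as was Aldh1a2, which makes retinoic acid, with 88, 97 and 75 against 386, 124 and 165. The Aldh1a2 call was lost without hTNFtg replicate 1, where the log2 fold change was 0.72 instead of 1.20, and without WT replicate 1 (1.21) or WT replicate 3 (1.10). Rxra, a partner of the retinoic acid receptors, was lowered, with 366, 333 and 407 against 56, 167 and 140, and was called raised with infliximab, at 226, 292 and 196. The infliximab call was lost without hTNFtg replicate 1, where the log2 fold change was 0.62 instead of 1.09, and without infliximab replicate 1 (1.12) or infliximab replicate 2 (0.94). Rbp4, the retinol carrier of the blood, was lowered, with 12, 112 and 99 against 6, 10 and 8, and was not called without WT replicate 2 (-2.03), WT replicate 3 (-2.11) or hTNFtg replicate 1 (-2.41). In infliximab versus untreated SFs 1 of 17 retinoid genes was raised and 1 lowered, against 1.49% and 0.936% of all genes. In treated versus WT SFs 2 of 18 were raised and 1 lowered, against 3.86% and 2.95%.

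The partners and chromatin regulators of HOX genes showed few calls. Of 11 TALE homeodomain genes, which include the Pbx and Meis cofactors that bind DNA together with HOX proteins, 1 was raised and 0 lowered in untreated hTNFtg SFs, namely Tgif2, with 26, 31 and 23 against 125, 56 and 41, where 3.35% of all genes were raised. Its log2 fold change was 1.29, and the call was lost without hTNFtg replicate 1 (0.83), WT replicate 1 (1.28) or WT replicate 3 (1.19). Between treated and untreated hTNFtg SFs 0 of 11 were called, where 1.49% of all genes were raised and 0.936% lowered. Of the 11, 0 had an unadjusted p under 0.05 in limma, against 3.59% of all genes. Of 34 Polycomb, Trithorax and related genes that keep HOX clusters silent or active, 0 were called in hTNFtg versus WT SFs. Over all genes, 3.35% were raised and 3.04% lowered. Among the 34, 2 had an unadjusted p under 0.05 in limma, against 7.72% of all genes. In edgeR 0 had an adjusted p under 0.05, against 3.24% of all genes. The 0 lowered became 4 without hTNFtg replicate 3 and 2 with array quality weights or without hTNFtg replicate 2. Of the 33 with a mean of at least 10, 25 had a negative log2 fold change (75.8%, against 54.5% of all such genes). Phf1, a Polycomb accessory protein, was the 1 of 34 raised with infliximab, where 1.49% of all genes were raised. It had 1159, 871 and 836 against 255, 598 and 472, a log2 fold change of 1.18. Without hTNFtg replicate 1 that was 0.83 and not called. Of the 16 to 17 protein-coding neighbours measured within 200000 bases of the clusters, 0 were called in any of the 3 comparisons. By the same rule 3.35% of all genes were raised and 3.04% lowered in hTNFtg versus WT SFs. These shares were 1.49% and 0.936% for infliximab versus untreated SFs, and 3.86% and 2.95% for treated versus WT SFs. In treated versus WT SFs 1 neighbour, Cbx5, had an unadjusted p under 0.05 in limma, against 11.9% of all genes. In hTNFtg versus WT and infliximab versus untreated SFs 0 neighbours had, against 7.72% and 3.59% of all genes.

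Most calls among noncoding genes inside or within 20000 bases of the clusters were at the Hotairm1 locus. Of 34 measured, 0 were raised and 4 lowered in untreated hTNFtg SFs, all 4 from the Hotairm1 locus (Hotairm1, Gm27868, Gm27477 and Gm27861), where 3.04% of all genes were lowered. All 4 lost the call without hTNFtg replicate 1 and without WT replicate 1, in each case with 1 other gene of the list called, and with the replicate number as a block 0 were lowered. With infliximab 4 of 34 were raised, Gm27868, Gm27477, Gm27861 and Gm15050, the last outside that locus, where 1.49% of all genes were raised. The 4 became 1 without hTNFtg replicate 1 or hTNFtg replicate 3, 2 without infliximab replicate 2 and 0 without infliximab replicate 3. In treated against WT SFs 1 of 32, Hoxaas2, was lowered, alongside Hoxa3 on its opposite strand. Hotair, an RNA of the Hoxc cluster, was at 2 or less in all 9 libraries, and Hottip, an RNA at the distal end of the Hoxa cluster, was between 1 and 13. The miRNA genes of the clusters, Mir10a, Mir10b, Mir196a-1, Mir196a-2, Mir196b and Mir615, were at 0 to 2, in libraries that start from polyadenylated RNA.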

How the data were processed

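Per the study's methods, 3′ mRNA libraries were aligned to mm10 with TopHat2, and unaligned reads with Bowtie2, then counted with GenomicRanges and normalized with DESeq through metaseqR (versions not given in the sources used here). The deposited values are the authors' rounded normalized counts, recorded as a signal for hTNFtg replicate 1 and as a score for the other 8 libraries. A further 24 per-sample columns, and the authors' fold changes and p-values, were not used. In hTNFtg replicate 1, 100% of the values from 1 to 100 were whole multiples of 1 read to the nearest whole number, and all libraries were divided by their step to give approximate reads.

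Each comparison was fitted with limma 3.58.1 in R 4.3.3 (eBayes with trend, log2(normalized count + 1), 6 libraries, genes above 0 in at least 1), adjusted over all genes. edgeR 4.0.16 (quasi-likelihood, approximate reads) was an alternative, with 923, 165 and 1322 genes at an adjusted p under 0.05 in hTNFtg versus WT, infliximab versus untreated and infliximab-treated versus WT SFs, against 137, 0 and 209 with limma. For infliximab versus untreated SFs, limma gave 1026 genes an unadjusted p under 0.05. Other alternatives were pseudocounts of 0.5 and 5, a minimum mean of 10, median-ratio and quantile scaling, array quality weights, a replicate block, all 9 libraries in 1 fit, and leaving out each library. HOX shares without Hoxa2 were added after seeing the data. The fits were checked on simulated data. Figures were drawn with matplotlib 3.10.9.

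The members and lists were chosen with earlier results of these data known. Library values are given for HOX genes with a mean of at least 10 in a group. Tests are given for called genes, for such genes whose groups do not overlap and for the gene with the highest mean of each cluster. From the lists of TALE cofactors, limb transcription factors, chromatin regulators, retinoid genes, noncoding genes and neighbours, called genes are named, up to 6 with a mean of at least 10, and Tbx4, Tbx5 and Pitx1 always. Some genes of the clusters and lists are counted but not named or plotted here. A few further genes named in the report were chosen after their values were seen. Of the marker lists, endothelial markers summed to 2 to 12 normalized counts and skeletal muscle markers to 12 to 69 per library.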

Additional observations from a re-analysis of the deposited data

How the results depend on the processing

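The counts of called HOX genes are small and moved with the processing. In hTNFtg versus WT SFs, 0 were raised, but 5 with array quality weights (Hoxb3, Hoxb4, Hoxb5, Hoxb8 and Hoxb9), and 0 to 4 when a library was left out. The 5 lowered became 3 among genes with a mean of at least 10, 3 with array quality weights (Hoxc13, Hoxd9 and, newly called, Hoxa3) and 1 to 4 when a library was left out, with 1, Hoxc13, without WT replicate 1 or without hTNFtg replicate 1, 2 without WT replicate 2 and 3 without WT replicate 3. With infliximab versus untreated SFs, the 2 raised became 1 with a pseudocount of 5, 1 among genes with a mean of at least 10, 1 with array quality weights (Hoxd9, which was not among the 2), 1 with edgeR and 0 to 3 when a library was left out, with 0 without hTNFtg replicate 1, infliximab replicate 2 or infliximab replicate 3. The 0 lowered became 4 with array quality weights (Hoxb3, Hoxb8, Hoxb9 and Hoxc5) and 0 to 5 when a library was left out. In infliximab-treated versus WT SFs, the 0 raised became 1 with array quality weights and 0 to 1 when a library was left out, and the 2 lowered became 1 with a pseudocount of 5, 1 with all 9 libraries in 1 fit and 2 to 3 when a library was left out. The causes were not tested. Whether replicate numbers pair the cultures is not known from the sources, and the main fits did not use them. Over 13600 genes, same-numbered libraries correlated at 0.292, -0.140 and 0.353 in their deviations from the group means for hTNFtg and WT. The values were 0.0698, 0.197 and 0.265 for treated and untreated, and 0.102, -0.147 and 0.0125 for treated and WT. Differently numbered libraries ranged from -0.485 to 0.237, from -0.256 to 0.126 and from -0.174 to 0.216, in the same order. With the replicate number as a block, 2 HOX genes were lowered in hTNFtg versus WT SFs (Hoxc11 and Hoxc13), 1 was raised with infliximab (Hoxa2) and 2 were lowered in treated versus WT SFs. Of the values for single genes, 751 kept direction and side of the threshold, 153 lost the call, 3 gained one and 18 changed sign, none of them called. The sign changes were Hoxb1 in hTNFtg versus WT SFs with array quality weights (-0.27), Hoxd13 in treated versus WT SFs with array quality weights (-0.0125) and Pitx1 in the same comparison with quantile scaling (-0.000372). The rest came with left-out libraries, with ranges of -0.000325 to 0.53 for Tbx4 and -0.11 to 0.34 for Hoxc13 with infliximab versus untreated SFs, and of -0.39 to 0.15 for Tbx4, -0.10 to 0.14 for Pitx1, -0.19 to 0.16 for Hoxa11 and -0.14 to 0.25 for Hoxd13 in treated versus WT SFs. Depth limits the low genes most, since 6 HOX genes were at or below the value of 3 reads in all 9 libraries and a value of 6 in hTNFtg replicate 1 is a single read.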
